A study of Rattus norvegicus with 100 samples.

Results

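The genes described here are the detoxification and redox enzymes on a rat expression array: glutathione S-transferases (Gst), glutathione peroxidases (Gpx), sulfotransferases (Sult), UDP-glucuronosyltransferases (Ugt), aldehyde dehydrogenases (Aldh), aldo-keto reductases (Akr) and cytochromes P450 (Cyp followed by a digit, without Cyp51), with Gclc, Gclm, Nqo1 and Hmox1. A gene was taken by its symbol, through a probe set annotated to it alone, where that probe set had a value on at least 35 of the 70 uterus arrays or 15 of the 30 pituitary arrays. The rule gave 59 genes, read by 61 probe sets, of 9030 genes that had a value. It left out 65 of the 124 genes with such names, among them Cyp1a1, valued on 2 uterus arrays, Sult1e1, the estrogen sulfotransferase, valued on 2 uterus and 4 pituitary arrays, and Cyp26b1, valued on 4 uterus arrays. The rule reads symbols and the presence of values, not the difference in intensity between groups. Presence can itself differ between groups. Cyp2e1 met the rule with 35 uterus arrays and 0 pituitary arrays. It had values on 2 treated and 2 control uterus arrays at 4 h, but on 0 and 4 at 24 h and 0 and 5 at 48 h. It could be tested at 1 uterus time and did not pass there. The members were, however, chosen with earlier results of these data known.

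The arrays came from immature female rats in a uterotrophic assay, a test in which a compound's estrogen action is read from growth of the uterus. Treated rats had received ethinylestradiol (EE), a synthetic estrogen, and each time had its own group labelled control; what the controls were given is not stated. Uterus was sampled at 2, 4, 8, 24, 28, 48 and 72 h with 5 arrays per group, and the pituitary gland at 4, 8, 24, 48 and 72 h with 3 arrays per group. Strain, dose, route and timing of doses are missing from the labels, which also leave unsaid whether each array is a separate animal, so p-values measure the spread between these samples only. Uterus arrays had between 9338 and 10677 values and pituitary arrays between 9318 and 10135. The summed intensity of 8 hormone-cell genes, with empty cells adding nothing, was 20628 to 30629 on the pituitary arrays and at most 82 on the uterus arrays.

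These enzymes clear reactive and foreign molecules in steps. Cytochromes P450 oxidise lipophilic compounds, aldehyde dehydrogenases and aldo-keto reductases convert the carbonyl products, and transferases attach glutathione, sulfate or glucuronic acid so that the product can leave the cell. Glutathione peroxidases use glutathione to reduce peroxides. The glutamate-cysteine ligase subunits Gclc and Gclm carry out the opening step in making the glutathione that both the peroxidases and the Gst enzymes spend. Several of the genes also act on signals, since estrogens are sulfated and hydroxylated, and retinoic acid is made by aldehyde dehydrogenases. In the uterus, estrogen sets off water uptake within hours and growth of epithelium, stroma and muscle over days.

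Many of these genes are known to carry antioxidant response elements, short sites bound by the factor Nrf2, and 250 bases upstream of each annotated start were read for the element's core, TGACNNNGC, on both strands. RefSeq's table for the GRCr8 build held an entry for 48 of the 59 genes. The core stood in 10 of the 48 (20.8%), against 10.1% of 33469 rat promoters of the same length. The core of the xenobiotic response element, GCGTG, stood in 17 (35.4% against 25.9%), and the full estrogen response element (GGTCA and TGACC with any 3 bases between them) in none, against 0.0239% of all promoters. A match is a description of the letters in this window and not evidence of a bound site. The 4 stretches printed here belong to a pair of genes that rose in the EE uterus (Gpx2 and Gclm) and a pair that fell (Gstm5 and Gstm7). They are shown because all hold the same core, in capitals, while their RNA moved in opposite directions. Each reads 5′ to 3′ along its gene and ends at the base before the start.
Gpx2, chr6:101230034-101230283, minus strand: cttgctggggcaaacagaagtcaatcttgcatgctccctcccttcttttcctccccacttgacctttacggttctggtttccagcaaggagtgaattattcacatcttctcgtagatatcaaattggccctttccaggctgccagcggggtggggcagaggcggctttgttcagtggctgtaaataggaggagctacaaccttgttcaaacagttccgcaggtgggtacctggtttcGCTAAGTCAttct
Gclm, chr2:213031885-213032134, plus strand: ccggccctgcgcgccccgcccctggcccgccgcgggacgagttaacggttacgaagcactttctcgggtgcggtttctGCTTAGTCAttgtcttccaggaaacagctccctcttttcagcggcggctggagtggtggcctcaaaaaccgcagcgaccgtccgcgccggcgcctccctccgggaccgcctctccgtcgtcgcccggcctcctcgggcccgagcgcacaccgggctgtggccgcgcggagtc
Gstm5, chr2:198219519-198219768, plus strand: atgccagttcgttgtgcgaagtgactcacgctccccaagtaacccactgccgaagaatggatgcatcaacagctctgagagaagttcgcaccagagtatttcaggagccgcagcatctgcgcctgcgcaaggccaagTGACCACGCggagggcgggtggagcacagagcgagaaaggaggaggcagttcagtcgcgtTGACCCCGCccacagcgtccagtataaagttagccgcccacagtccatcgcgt
Gstm7, chr2:198260320-198260569, minus strand: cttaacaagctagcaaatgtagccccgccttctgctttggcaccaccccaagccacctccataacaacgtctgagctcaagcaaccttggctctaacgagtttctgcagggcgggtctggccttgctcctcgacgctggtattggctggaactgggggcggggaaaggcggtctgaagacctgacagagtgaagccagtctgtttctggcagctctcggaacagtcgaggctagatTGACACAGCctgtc
The core begins 13 bases before the start in Gpx2 and 172 bases before it in Gclm, in both cases on the opposite strand. In Gstm5 it begins 113 and 53 bases before the start and in Gstm7 14 bases before it, on the gene's own strand. The other 6 genes with a core were Gstp1, Gstz1, Aldh16a1, Aldh1a2, Cyp2s1 and Cyp4b1.

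In the uterus, EE moved these enzymes in both directions. Glutathione peroxidases 1 and 2, the ligase subunit Gclm, and the reductases Akr1b8 and Akr1c14 rose. The mu-class transferases, Gsta4, the sulfotransferase Sult1a1 and most P450 genes that passed the test fell. Of 54 genes that could be tested at 1 or more times, 46 passed at some time: 15 only as higher, 26 only as lower and 5 as lower at some times and higher at others. Passing means a Benjamini-Hochberg adjusted p below 0.05 over all genes tested, from limma's moderated test on log2 of the intensity plus an offset of 30.4. Folds are on that scale and understate the change of dim genes. Among them, 12 genes passed in the same direction at all 6 times from 4 h: 4 as higher (Gpx1, Gpx2, Gclm, Aldh1a2) and 8 as lower (Sult1a1, Gsta4, Gstm2, Gstm5, Cyp27a1, Cyp4v3, Aldh3a2, Aldh6a1). At each time from 4 h, 57.1% to 64.4% of all genes passed, more of them as lower than as higher. That direction depended on array scaling at 24 and 28 h. With each array centred on its median, 51.2% of the genes that passed at 24 h were higher, against 42% without centring. At 28 h the shares were 51.7% and 45.4%. At 4, 8, 48 and 72 h more genes were lower with centring too. The shares of all genes given in this text are without centring. The share of all genes over several times was not computed, so the counts of 46 and 12 have no background beside them. In whole tissue, fewer cells of a type and less RNA per cell cannot be told apart.

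The share of enzymes that passed lay near the share of all genes. At 2 h 1 of 51 enzymes passed, as lower, where 6.39% of all genes did (4.02% higher, 2.37% lower). At 4 h 8 of 50 enzymes were higher and 24 lower, where 58.1% of all genes passed (23.6% higher, 34.5% lower). At 8 h 8 of 49 were higher and 24 lower (all genes 64.4%, of them 28.9% higher and 35.5% lower). Early on, then, falls outnumbered rises among the enzymes, as they did among all genes. At 24 h 13 of 51 were higher and 16 lower (all genes 59.3%, 24.9% and 34.4%), and at 28 h 17 of 50 were higher and 18 lower (62.9%, 28.5% and 34.3%). At 48 h 16 of 49 were higher and 12 lower (57.1%, 24.2% and 33%), and at 72 h 16 of 48 were higher and 16 lower (60.2%, 23.3% and 36.9%). EE and control arrays did not overlap for 2 of 51 enzymes at 2 h (5.81% of all genes), 21 of 50 at 4 h (41.6%), 27 of 49 at 8 h (51.6%), 25 of 51 at 24 h (42.6%), 30 of 50 at 28 h (46.2%), 22 of 49 at 48 h (40.3%) and 24 of 48 at 72 h (40.6%). A change of at least 2-fold that passed was seen in no enzyme at 2 h (all genes 0.333%), 2% of enzymes at 4 h (all genes 3.06%), 16.3% at 8 h (6.31%), 11.8% at 24 h (3.52%), 14% at 28 h (4.87%), 16.3% at 48 h (3.62%) and 14.6% at 72 h (4.19%). It came from 15 genes, 6 higher and 9 lower. The members were chosen with earlier results of these data known, so the larger 2-fold shares are a description and not an independent result.

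**Figure D1:**
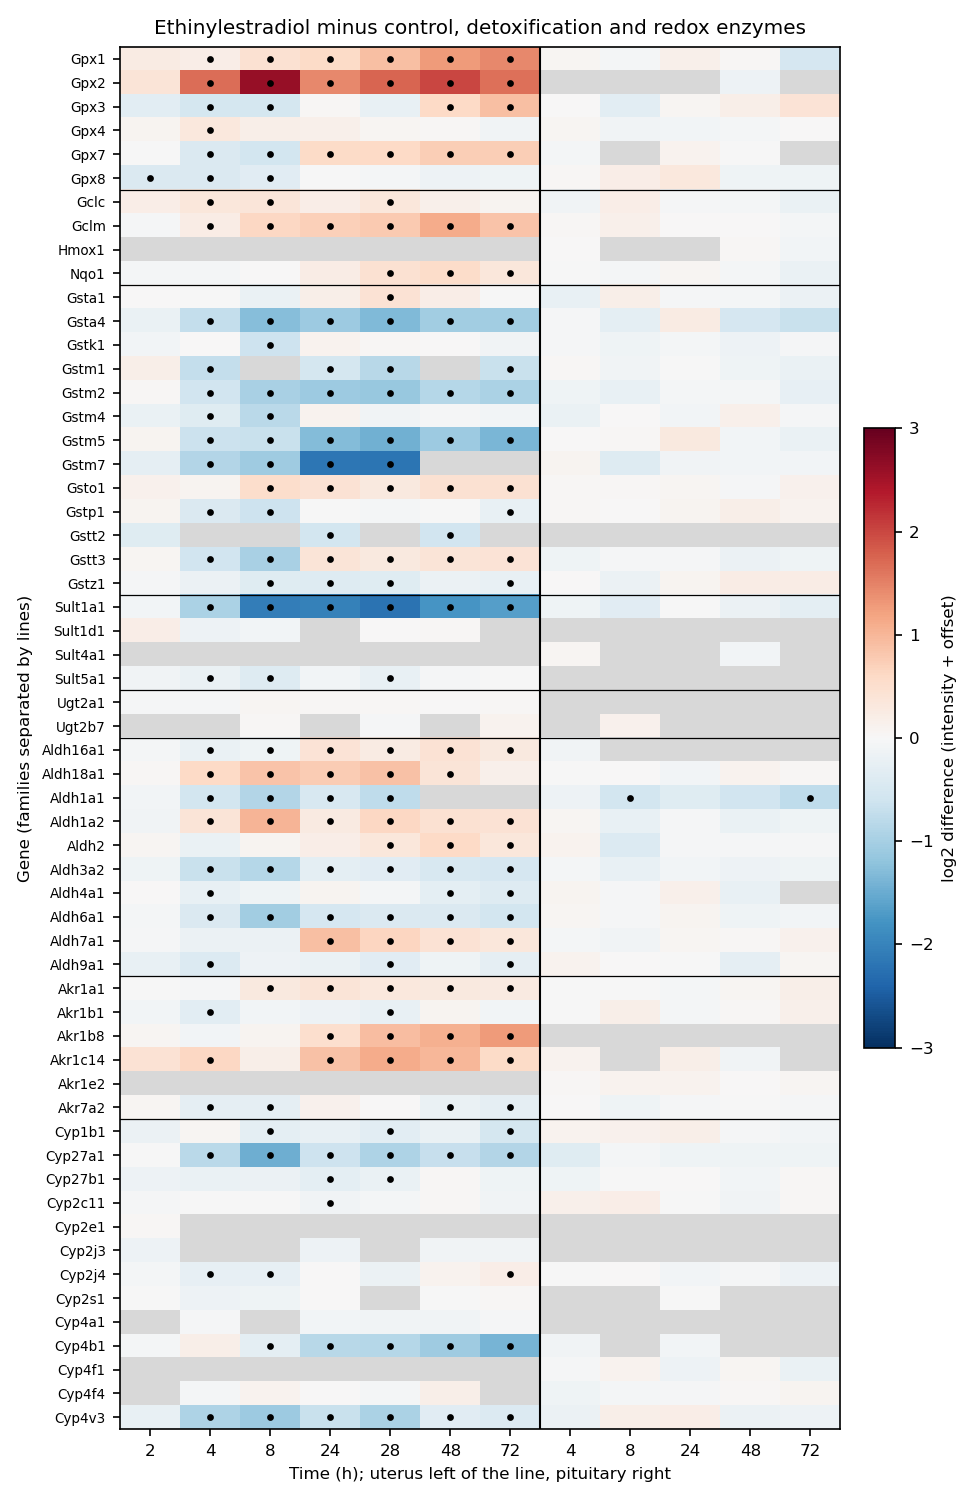
Log2 difference, EE minus control, of each tested enzyme gene (rows, by family) at each time in hours (columns; 7 uterus times left of the line, 5 pituitary times right). Dots mark an adjusted p under 0.05 and grey cells were not tested. Gpx2 reached 2.6 at 8 h in uterus and Sult1a1 fell to -2.21 at 28 h, while in pituitary only Aldh1a1 carries dots.

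**Figure D2:**
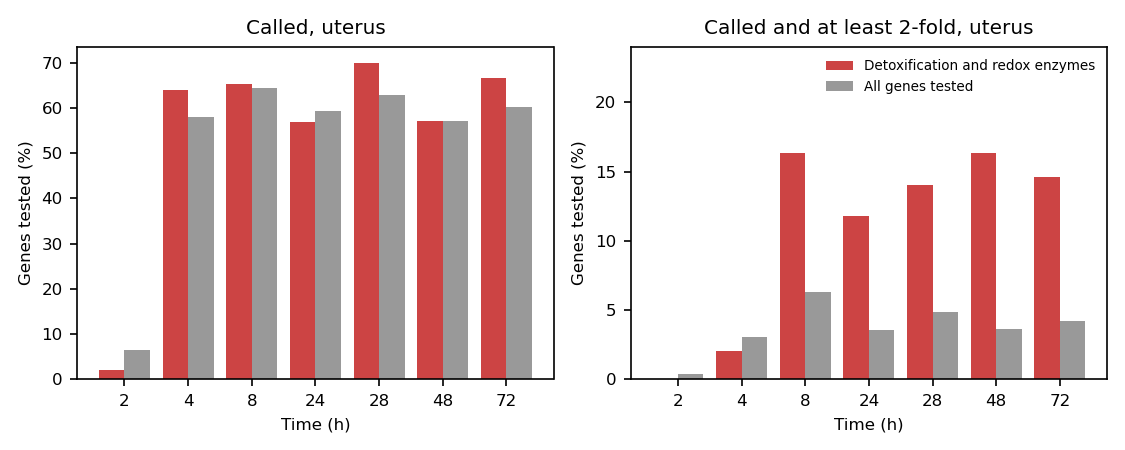
Percent of tested genes that passed (left) and that passed with at least a 2-fold difference (right) at each time in uterus, for the enzymes (red) and all genes tested (grey). The left bars lie close together from 4 h on, and the red bars on the right stand at 11.8% to 16.3% from 8 h against 3.52% to 6.31% in grey.

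Among the 6 glutathione peroxidases, 3 rose and 3 fell at 4 h, 2 rose and 3 fell at 8 h, and from 24 h on 3 or 4 of 6 rose with none falling. Of all genes 23.3% to 28.9% rose and 33% to 36.9% fell at these times. Gpx2, the peroxidase of epithelia, showed the largest rise of any enzyme here. At 4 h its control arrays read 122, 139, 141, 85.5 and 101 and its EE arrays 467, 450, 387, 441 and 454. At 8 h control read 85.0, 111, 98.3, 89.4 and 96.9 and EE 735, 732, 758, 755 and 702. The groups were far apart at both times and the EE arrays at 8 h lay close together. The fold was 3.2 at 4 h (log2 1.68, SE 0.154, adjusted p = 1.07e-14) and 6.08 at 8 h (log2 2.6, SE 0.153, adjusted p = 3.44e-23), and it stayed at log2 1.44 to 2.00 from 24 to 72 h.

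Gpx1, the cytosolic peroxidase of most cells, rose more slowly. Its EE mean was 755 ± 38.6 at 2 h, 831 ± 73.8 at 8 h, 1035 ± 155 at 28 h and 1479 ± 101 at 72 h (SD, n = 5 each). The difference from control did not pass at 2 h. The control level also changed over time, with group means of 9.10 to 9.42 on the log2 scale (F test across control groups, adjusted p = 0.00567). At 72 h control read 546, 514, 517, 495 and 529 and EE 1497, 1452, 1387, 1415 and 1644. Every EE array was above every control array, 2.74-fold by the fit (log2 1.45, SE 0.0817, adjusted p = 1.45e-23). At 4 h the difference was 0.20 on the log2 scale and did not pass under quantile normalisation or without any 1 of 5 single arrays (control 15, 17 or 18, EE 20 or 23).

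Gpx3, the secreted peroxidase of plasma, and Gpx7, a peroxidase of the endoplasmic reticulum, fell first and rose later. For Gpx3 at 8 h control read 282, 189, 297, 230 and 263 and EE 183, 149, 150, 166 and 176. At 72 h control read 256, 230, 249, 221 and 231 and EE 613, 438, 714, 234 and 514. The groups did not overlap at 8 h; at 72 h 4 EE arrays were above all controls and 1 lay among them. The log2 difference was -0.52 (SE 0.185, adjusted p = 0.0115) at 8 h and 0.91 (SE 0.185, adjusted p = 2.40e-05) at 72 h. Gpx7, chosen after its values were seen, ranged from 161 to 196 in control and 90.6 to 138 in EE arrays at 8 h, and from 152 to 162 and 261 to 307 at 72 h. Neither pair of groups overlapped, with log2 differences of -0.55 (SE 0.0835, adjusted p = 3.78e-08) and 0.74 (SE 0.0836, adjusted p = 2.05e-11). A test for a change of the EE effect over the 7 times passed for 33 of 43 enzymes, against 81.7% of all genes.

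Gpx4, which reduces lipid peroxides in membranes, read 547, 621, 466, 524 and 497 in control and 619, 693, 710, 613 and 692 in EE arrays at 4 h. The groups overlapped and the rise passed (log2 0.31, SE 0.0853, adjusted p = 0.00131); no other time passed. Gpx8, also of the endoplasmic reticulum and named after its values were seen, was the enzyme that passed at 2 h, with control arrays at 442 to 497 and EE arrays at 273 to 422 (log2 -0.43, SE 0.127, adjusted p = 0.0274). That count of 1 became 0 without control array 6 or EE array 12, 2 without control array 2, 3 without control array 3 or 4, and 4 without EE array 7; the call on Gpx8 was also lost without EE array 10.

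**Figure D3:**
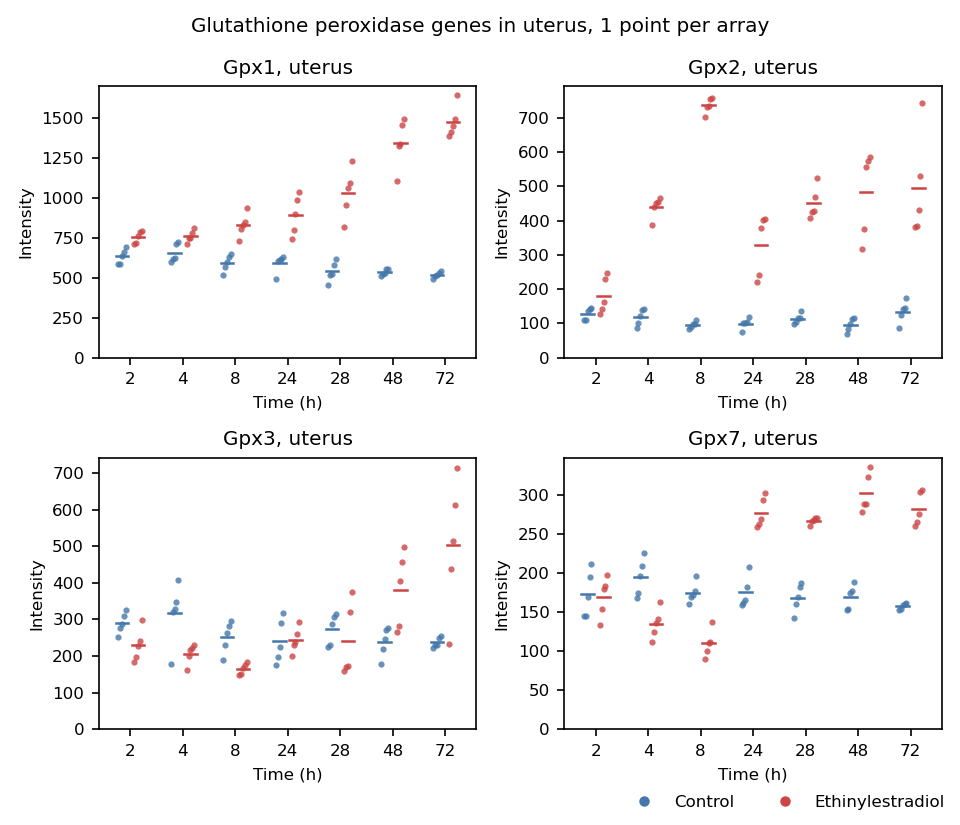
Intensity of Gpx1, Gpx2, Gpx3 and Gpx7 on each uterus array (vertical axis) against time in hours (horizontal, evenly spaced), control in blue and EE in red, with bars at group means; points are spread sideways to be seen. Gpx2 jumps to 702 to 758 at 8 h, Gpx1 climbs to 1387 to 1644 at 72 h, and Gpx3 and Gpx7 cross from below to above control.

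The ligase and the other classic antioxidant genes rose where they moved. Gclm, the modifier subunit that makes the ligase efficient, read 50.7, 49.5, 55.7, 43.3 and 54.4 in control and 94.0, 99.7, 101, 101 and 73.3 in EE arrays at 8 h. At 48 h control read 56.3, 54.9, 48.6, 59.1 and 50.9 and EE 139, 151, 164, 146 and 160. All EE arrays were above all controls at both times. The fold was 1.53 at 8 h (log2 0.61, SE 0.0921, adjusted p = 3.51e-08) and 2.16 at 48 h (log2 1.11, SE 0.0922, adjusted p = 3.77e-16). Its smaller rise at 4 h (log2 0.23) was lost without control array 14, 15 or 17 or EE array 21.

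Gclc, the catalytic subunit, moved less. At 8 h control read 51.4, 53.2, 55.8, 64.2 and 53.5 and EE 91.2, 85.2, 76.3, 67.9 and 82. The groups did not overlap (log2 0.36, SE 0.0924, adjusted p = 0.000456), and it also passed at 4 and 28 h but at no other time. Nqo1, a quinone reductase, passed at 28, 48 and 72 h; at 48 h control read 65.2, 74.7, 48.4, 65.1 and 41.7 and EE 96.5, 107, 91.7, 84.9 and 120. Every EE array was above every control array (log2 0.55, SE 0.125, adjusted p = 0.000134).

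Hmox1, heme oxygenase, which breaks down heme, had values mostly on EE arrays. No control array had a value at 2, 4, 28 or 72 h, 1 of 5 had one at 8 and 48 h (26 and 26.9), and 2 of 5 at 24 h (30.4 and 29.6). On EE arrays 4 of 5 had one at 2 h, 3 of 5 at 24 h and 5 of 5 at the other times. The EE values were 62, 62.8, 56.7, 58.7 and 64.1 at 4 h and 51.8, 45.9, 54.1, 51.2 and 66.1 at 72 h. Every uterine EE value from 4 h on was above the 4 control values. Hmox1 met the rule in pituitary as well as in uterus, where 32 of its 36 values were on EE arrays. What an empty cell stands for is not given in the sources used here, so there is no fold and no test. In pituitary, where 11 of 15 control arrays and 12 of 15 EE arrays had a value, the values were 28.0 to 48.4 in both groups.

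More of the Gst genes fell than rose at each time from 4 h. Of those tested 8 of 12 were lower at 4 h (34.5% of all genes), 9 of 11 at 8 h (35.5%), 7 of 13 at 24 h (34.4%), 6 of 12 at 28 h (34.3%), 4 of 11 at 48 h (33%) and 6 of 11 at 72 h (36.9%). Between 0 and 3 were higher, and the count at 48 h lay near the share of all genes. The largest falls were in the mu class, a cluster of closely related genes whose probe sets can share signal. Gstm7 read 267, 180, 209, 311 and 205 in control arrays at 24 h and 28.7, 34.4, 23 and 25.7 in the 4 EE arrays with a value. At 28 h control read 274, 305, 354, 212 and 216 and the 3 valued EE arrays 34.7, 26.7 and 45.2. At 48 h 2 of 5 EE arrays had a value and at 72 h none, while all control arrays did. The fit, which left out the empty cells, gave 4.55-fold lower at 28 h (log2 -2.19, SE 0.197, adjusted p = 4.10e-14).

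Gstm5 had control arrays at 603, 743, 677, 426 and 460 and EE arrays at 174, 216, 180, 205 and 175 at 28 h. Gstm2 had control arrays at 283, 352, 308, 286 and 282 and EE arrays at 161, 115, 114, 99.4 and 121 at the same time. Neither gene's groups overlapped, and the falls were 2.73-fold (log2 -1.45, SE 0.168, adjusted p = 3.24e-11) and 2.19-fold (log2 -1.13, SE 0.102, adjusted p = 4.23e-15). Gstm1, with values on 4 of 5 EE arrays at 28 h (96.4, 110, 73.6 and 91.4), read 189, 270, 244, 138 and 137 in control (log2 -0.84, SE 0.151, adjusted p = 2.95e-06). Its groups did not overlap; at 8 and 48 h only 2 EE arrays had a value, so it was not tested there.

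Gsta4, an alpha-class enzyme that conjugates lipid aldehydes such as hydroxynonenal, fell from 4 h on. At 28 h control read 323, 374, 281, 286 and 339 and EE 130, 103, 111, 90.2 and 110. No EE array reached any control array, and the fit gave 2.52-fold lower (log2 -1.33, SE 0.115, adjusted p = 9.12e-16). Gstp1, the pi-class enzyme, was lower at some times only. At 8 h control read 513, 672, 604, 602 and 550 and EE 376, 398, 342, 361 and 375. The groups were separate then (log2 -0.62, SE 0.0774, adjusted p = 1.94e-10), and at 24 h the difference was -0.02 (adjusted p = 0.838). At 72 h Gstp1 passed as lower (log2 -0.23), a call that was lost without control array 78.

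A pair of Gst genes outside the largest falls, picked after their values were seen, show the range of time courses. Gstt3, of the theta class, had control arrays at 221 to 267 and EE arrays at 97.0 to 120 at 8 h, then control at 211 to 260 and EE at 292 to 413 at 24 h. The groups were apart at both times, with log2 differences of -0.98 (SE 0.102, adjusted p = 6.92e-13) and 0.38 (SE 0.103, adjusted p = 0.00111). Gsto1, of the omega class, rose from 8 h on: control arrays there read 178 to 205 and EE arrays 273 to 326 (log2 0.53, SE 0.0820, adjusted p = 5.69e-08). Gstt2 had no value on any of 5 EE arrays at 8 h, where the 5 controls read 50.2 to 70.9.

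Sult1a1, which sulfates phenols and, less readily, estrogens, fell as far as Gstm7. At 4 h control read 419, 361, 367, 403 and 322 and EE 217, 146, 191, 158 and 191. At 28 h control read 287, 377, 342, 278 and 320 and EE 47.2, 54.6, 29.7, 45.8 and 50.2. The groups were apart at every time from 4 h on. The fall was 1.92-fold at 4 h (log2 -0.94, SE 0.160, adjusted p = 8.20e-07) and 4.63-fold at 28 h (log2 -2.21, SE 0.160, adjusted p = 7.27e-19), and it was still log2 -1.66 at 72 h. The control level itself declined, from 368 ± 125 at 2 h to 212 ± 68.8 at 72 h (SD, n = 5), and differed over time by the test across control groups (adjusted p = 0.000156); 18 of 50 enzymes passed that test, against 32.8% of all genes. Of the other sulfotransferases, Sult5a1 fell at 4, 8 and 28 h by 0.20 to 0.38 on the log2 scale and Sult1d1 passed at no time. No Ugt gene passed in uterus: Ugt2b7 read 12.1 to 16.9 on 4 control and 12.7 to 18.1 on 4 EE arrays at 8 h, values below the offset. Ugt8, the ceramide galactosyltransferase and the highest-valued Ugt member in pituitary, had too few values for a test in either tissue.

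**Figure D4:**
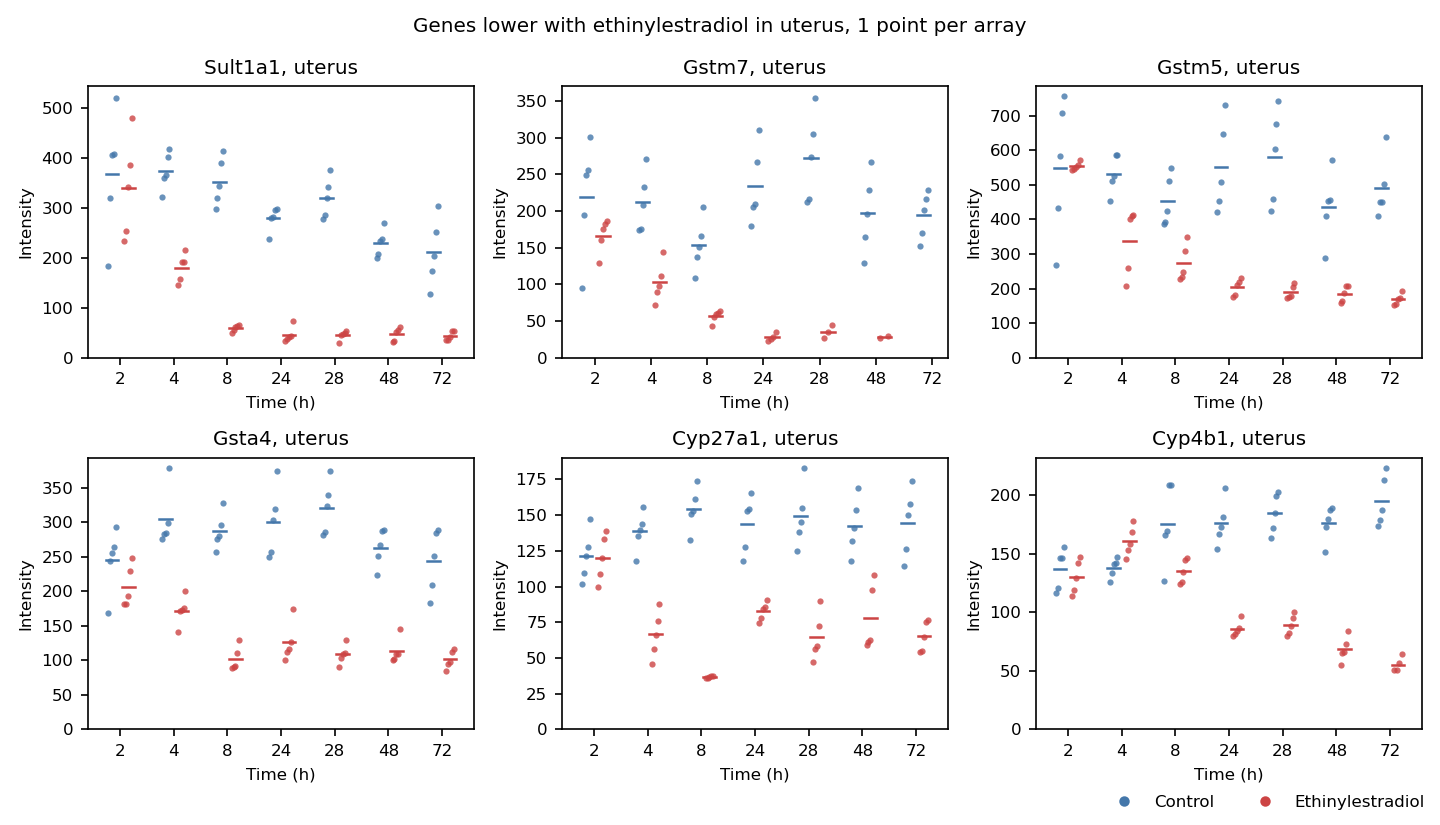
Intensity of Sult1a1, Gstm7, Gstm5, Gsta4, Cyp27a1 and Cyp4b1 on each uterus array with a value (vertical axis) against time in hours (evenly spaced), control in blue and EE in red, with bars at group means. Sult1a1 EE arrays lie at 29.7 to 54.6 at 28 h under controls of 278 to 377, and Gstm7 has no EE point at 72 h.

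The P450 genes that passed were, but for 1, lower. Of those tested 3 of 10 fell at 4 h (34.5% of all genes), 5 of 9 at 8 h (35.5%) and 5 of 11 at 24 h (34.4%). Later 5 of 9 fell at 28 h (34.3%), 3 of 11 at 48 h (33%) and 4 of 10 at 72 h (36.9%). The counts at 4, 48 and 72 h lay near the share of all genes. The 1 that rose was Cyp2j4 at 72 h, by 0.21 on the log2 scale (EE 42 ± 4.96, control 32.2 ± 3.78, SD, n = 5). Cyp2j4 was named after its values were seen. Cyp27a1, the sterol 27-hydroxylase of mitochondria, read 153, 174, 161, 151 and 133 in control and 37, 37, 36.1, 37 and 35.6 in EE arrays at 8 h. The EE arrays were nearly alike and far below control, 2.75-fold by the fit (log2 -1.46, SE 0.110, adjusted p = 1.90e-18). The gap was smaller later, at log2 -0.62 to -0.92 from 24 to 72 h. Cyp4v3, a fatty acid hydroxylase, read 150, 173, 161, 180 and 142 in control and 50.2, 55.1, 74.3, 67.8 and 54.2 in EE arrays at 8 h, again without overlap (log2 -1.08, SE 0.0883, adjusted p = 5.30e-17).

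Cyp4b1, another fatty acid hydroxylase, took the opposite course in time. At 4 h control read 147, 142, 141, 126 and 134 and EE 178, 146, 154, 169 and 159, overlapping groups with a log2 difference of 0.18 that did not pass (adjusted p = 0.0501). At 72 h control read 188, 224, 174, 179 and 213 and the 4 valued EE arrays 56.5, 50.4, 50.4 and 63.9. The fall had grown at each later time to 2.63-fold (log2 -1.39, SE 0.0873, adjusted p = 2.73e-21). Cyp1b1, which hydroxylates estradiol at carbon 4, was dim: at 72 h control read 50.8, 83.5, 49.7, 88.4 and 76.3 and the 3 valued EE arrays 48.4, 48.3 and 22.0 (log2 -0.52, SE 0.139, adjusted p = 0.000959). Its groups were only just apart, and its calls at 8 and 28 h were lost under other scalings and without several single arrays. Cyp2j3 had values on all control arrays (15 to 27) and on no EE array at 8 and 28 h, but on 3 or 4 EE arrays at 2, 24, 48 and 72 h, where it was tested and did not pass.

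The aldehyde dehydrogenases moved both ways. At 4 h 2 of 10 rose and 6 fell (all genes 23.6% and 34.5%), and at 8 h 2 rose and 4 fell (28.9% and 35.5%). At 24 h 4 of 10 rose and 3 fell (24.9% and 34.4%), and at 28 h 5 rose and 4 fell (28.5% and 34.3%). At 48 h 5 of 9 rose and 3 fell (24.2% and 33%), and at 72 h 4 rose and 4 fell (23.3% and 36.9%). The counts at 8 h lay near the shares of all genes. Aldh1a2, a retinoic acid synthase, read 473, 502, 528, 492 and 458 in control and 952, 1019, 1021, 1012 and 1130 in EE arrays at 8 h. The EE arrays were all above control, 2.03-fold (log2 1.02, SE 0.109, adjusted p = 1.29e-12). Its rise at 24 h (log2 0.28) did not pass under quantile normalisation, with only the 2 groups in the fit, or without control array 38 or 39 or EE array 46. Aldh1a1, a related enzyme of retinal oxidation, went the other way: control read 59.1, 71.2, 100, 104 and 72.9 and EE 28.8, 24.8, 37.1, 34.5 and 26.5 at 8 h. These groups were separate as well (log2 -0.87, SE 0.112, adjusted p = 1.08e-09), and at 48 and 72 h only 2 and 1 of 5 EE arrays had a value, against all controls.

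Aldh6a1, the methylmalonate semialdehyde dehydrogenase of valine breakdown, read 136, 118, 118, 134 and 120 in control and 48.3, 60.4, 43.8, 44.6 and 28.9 in EE arrays at 8 h. The groups were apart (log2 -1.05, SE 0.0865, adjusted p = 6.34e-17), and its second probe set gave -0.79 there and a negative difference at every other uterus time. Aldh3a2, the fatty aldehyde dehydrogenase, had control arrays at 264 to 341 and EE arrays at 131 to 197 at 8 h (log2 -0.85, SE 0.0941, adjusted p = 4.73e-12). The rises were in Aldh18a1, which makes proline precursors, with control arrays at 87.9 to 121 and EE arrays at 194 to 260 at 28 h (log2 0.89, SE 0.0907, adjusted p = 4.60e-13), and Aldh7a1, of lysine breakdown, with control arrays at 249 to 319 and EE arrays at 521 to 631 at 24 h (log2 0.91, SE 0.0834, adjusted p = 1.91e-14). Neither pair of groups overlapped; these 3 genes were singled out after their values were seen. Aldh2, the mitochondrial acetaldehyde dehydrogenase, read 582, 600, 554, 576 and 711 in control and 959, 1064, 785, 981 and 859 in EE arrays at 48 h, also apart (log2 0.59, SE 0.138, adjusted p = 0.000197); its smaller rises at 28 and 72 h were lost under quantile normalisation and without several single arrays.

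Of 5 tested aldo-keto reductases 1 rose and 2 fell at 4 h (all genes 23.6% and 34.5%), and 1 rose and 1 fell at 8 h (28.9% and 35.5%). From 24 h on 3 of 5 rose at each time, where 23.3% to 28.5% of all genes did. None fell at 24 h, and 1 fell at each of 28, 48 and 72 h, where 33% to 36.9% of all genes did. Akr7a2, named after its values were seen, passed as lower at 4 of 7 uterus times and never as higher. Akr1c14, the 3-alpha-hydroxysteroid dehydrogenase of the rat, read 65.8, 31.7, 47.2, 62 and 67 in control and 154, 128, 168, 146 and 165 in EE arrays at 28 h. All EE arrays were above control (log2 1.11, SE 0.141, adjusted p = 4.12e-10), and a second probe set gave 0.62 there. Akr1b8, which reduces lipid aldehydes, read 59.3, 39.2, 50 and 48.2 on the 4 valued control arrays and 118, 215, 167, 94.8 and 251 on the EE arrays at 72 h. The EE arrays were above control but spread widely (log2 1.27, SE 0.175, adjusted p = 7.14e-09).

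Akr1a1, a general aldehyde reductase, read 918, 850, 846, 968 and 863 in control and 1228, 1074, 1177, 1142 and 1229 in EE arrays at 24 h. The groups were apart (log2 0.38, SE 0.0583, adjusted p = 6.71e-08), but at 72 h its difference of 0.26 turned to -0.04 under quantile normalisation. Akr1b1, aldose reductase, read 744, 864, 680, 631 and 636 in control and 614, 523, 653, 537 and 488 in EE arrays at 4 h. They overlapped and the fall was small (log2 -0.32, SE 0.0983, adjusted p = 0.00406); its fall at 28 h (log2 -0.22) was lost when arrays were centred and without several single arrays.

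Levels of cell type markers moved in the same uteri. The summed intensity of 8 epithelial genes was 5294 to 7418 on EE and 1594 to 2092 on control arrays at 72 h, with 6 of 8 passing as higher, and 2703 to 3067 against 1758 to 2733 at 8 h, with 4 higher and 1 lower. Of 6 macrophage genes 5 had a value, and their sum was 1420 to 2204 on EE and 450 to 625 on control arrays at 72 h. The sum of 8 stromal genes at 8 h was 10643 to 11588 on EE and 13390 to 15676 on control arrays, with 5 of 8 lower. Fat-cell genes summed to 0 to 131 on EE and 158 to 1118 on control arrays at 48 h. An empty cell counted as 0 in each of these sums, so a low sum can reflect missing values. Array measures differed as well. EE arrays had more empty cells at 8 h (38.2% against 34.5%), and a smaller log2 gap between the 3′ and 5′ Actb probe sets at 8 h (0.225 against 0.510), 28 h (0.197 against 0.441) and 48 h (0.248 against 0.615). The Gapdh gap was smaller at 48 h (0.341 against 0.550), and the array median was lower at 24 h (96.8 against 102.0) and 72 h (98.4 against 102.6). Each of these 7 differences had an exact permutation p of 0.00794, two-sided, the smallest that 5 against 5 arrays allow, and 0.0544 after adjustment over the array measures. At 72 h the Actb gap (0.317 against 0.668) had an exact permutation p of 0.0317 and the share of empty cells (39.2% against 36.3%) one of 0.0397. The array median was also lower on EE arrays at 4 h (99.1 against 103.2), 28 h (98.6 against 102.9) and 48 h (97.9 against 101.1). The exact permutation p was 0.0397, 0.0397 and 0.0238. The part of these measures in the enzyme results was not tested.

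Other genes of the same pathways, from 12 lists of 197 genes of which 140 had a value, moved both ways, as all genes did. At 4 h 22 of 106 tested genes rose and 48 fell (all genes 23.6% and 34.5%). At 72 h 34 of 104 rose and 37 fell (23.3% and 36.9%). These lists too were chosen with earlier results of these data known. In the thioredoxin, peroxiredoxin and glutaredoxin list 1 of 15 tested genes rose and 1 fell at 2 h, 4 and 4 of 14 at 4 h, 8 and 3 of 14 at 8 h, 11 and 1 of 15 at 24 h, 10 and 3 at 28 h, 8 and 2 at 48 h and 7 and 3 at 72 h. Among all genes 4.02% rose and 2.37% fell at 2 h. The share that rose was 23.6% at 4 h, 28.9% at 8 h, 24.9% at 24 h, 28.5% at 28 h, 24.2% at 48 h and 23.3% at 72 h. From 4 h on 33% to 36.9% of all genes fell. Txnrd1, thioredoxin reductase, rose early (590 ± 30.6 on EE against 233 ± 7.69 on control arrays at 4 h, SD, n = 5; log2 1.24, SE 0.0711, adjusted p = 3.01e-23), while Txnip, the inhibitor of thioredoxin, fell (474 ± 76.9 against 1890 ± 162; log2 -1.94, SE 0.144, adjusted p = 3.30e-18). Later rises were in Glrx, a glutaredoxin (348 ± 84.3 against 64.2 ± 13.9 at 72 h; log2 1.98, adjusted p = 1.82e-12), Gsr, which recycles glutathione (117 ± 14.3 against 29.3 ± 3.99; log2 1.30, adjusted p = 1.95e-21), and Sod2, the mitochondrial superoxide dismutase (263 ± 22.5 against 110 ± 18.6; log2 1.07, adjusted p = 3.08e-15).

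Among other conjugation and oxidation enzymes 14 of 22 tested genes fell and 2 rose at 4 h, where 34.5% of all genes fell and 23.6% rose, and 13 of 19 fell and 2 rose at 8 h (35.5% and 28.9%). At 2 h 1 of 23 rose and none fell (all genes 4.02% and 2.37%). Later 9 of 22 fell and 5 rose at 24 h (all genes 34.4% and 24.9%) and 10 and 6 of 22 at 28 h (34.3% and 28.5%). At 48 h 11 of 23 fell and 8 rose (33% and 24.2%), and at 72 h 12 of 22 fell and 7 rose (36.9% and 23.3%). Fmo1, a flavin monooxygenase, read 61.3 ± 3.00 on the 4 valued EE arrays and 188 ± 23 on control arrays at 8 h (SD; log2 -1.25, adjusted p = 4.59e-16). Inmt, an amine methyltransferase, rose at 4 h (1404 ± 219 against 624 ± 106; log2 1.14, adjusted p = 7.84e-09) and was lower at 72 h (315 ± 91.3 against 1010 ± 137; log2 -1.62, adjusted p = 1.11e-13). Mgst1, the microsomal glutathione transferase listed with glutathione supply, fell with the soluble Gst genes at 8 h (143 ± 25.9 against 506 ± 43.8; log2 -1.64, adjusted p = 6.88e-20). Other falls past 2-fold were in Dhrs3 (54.1 on EE against 173 on control arrays at 8 h, means), the sulfatase Arsb (95.7 against 229 at 8 h), Aox1 (24.2 against 103 at 72 h), the monoamine oxidase Maob (53.5 against 148 at 72 h), the Ah receptor's partner Arnt2 (41.2 against 134 at 28 h) and the metallothionein Mt2A (606 against 1218 at 72 h). Rises past 2-fold were in the transferrin receptor Tfrc (539 against 168 at 4 h), Rdh10 (146 against 56.4 at 4 h), Chac1, which degrades glutathione (120.0 against 43.5 at 4 h), Tpmt (147 against 51.8 at 24 h), Taldo1 of the pentose phosphate pathway (405 against 182 at 28 h), xanthine dehydrogenase Xdh (822 against 293 at 72 h) and the retinoic acid carrier Crabp2 (267 against 91.8 at 72 h, with overlapping groups). In steroid turnover Hsd11b2, which inactivates glucocorticoids, rose to 923 ± 107 against 181 ± 41.8 at 28 h (log2 2.19, adjusted p = 1.50e-16) and Hsd17b11 fell to 64.3 ± 8.02 against 281 ± 42.5 at 8 h (log2 -1.71, adjusted p = 4.38e-23). Of 7 tested genes for Nrf2 and its regulators, 2 rose and none fell at 2 h (all genes 4.02% and 2.37%). At 4 h 5 rose and 1 fell (23.6% and 34.5%), and at 8 h 1 rose and 1 fell (28.9% and 35.5%). None rose and 4 fell at 24 h (24.9% and 34.4%), and 1 rose and 3 fell at 28 h (28.5% and 34.3%). None rose and 5 fell at 48 h (24.2% and 33%), and none rose and 2 fell at 72 h (23.3% and 36.9%).

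In the pituitary gland, Aldh1a1 was the enzyme that passed the test, with 3 arrays per group. None of 47 passed at 4 h (1.49% of all genes), 1 of 42 at 8 h (3.59%), none of 45 at 24 h (0.103%), none of 46 at 48 h (0.294%) and 1 of 41 at 72 h (2.66%). At an unadjusted p below 0.05 there were 2, 4, 2, 5 and 9 enzymes at these times. The share of all genes at that threshold was not computed, so these counts are not read as a response. Limma with a trended prior gave the same counts of passing enzymes as the first test. Groups did not overlap for 3 of 47 (14.6% of all genes), 2 of 42 (18.8%), 2 of 45 (12%), 12 of 46 (20.3%) and 12 of 41 (23.4%). The EE effect changed over time for none of 40 enzymes (1.11% of all genes). Both calls were Aldh1a1, lower with EE as in uterus. At 72 h control read 312, 408 and 334 and EE 222, 191 and 172, without overlap (log2 -0.76, SE 0.157, adjusted p = 0.00647), and the call held without each of the 6 arrays in turn. At 8 h control read 254, 373 and 194 and EE 179, 141 and 196; these overlapped (log2 -0.55, SE 0.157, adjusted p = 0.0458), and the call on Aldh1a1 was lost without any single array but control array 30. The count of enzymes at 8 h was 0 without control array 26 or 28 or EE array 32, and 2 without control array 30 or EE array 33. The sum of 4 valued genes of neural lobe and glia, with empty cells adding nothing, was 204 to 309 on EE and 252 to 573 on control arrays at 72 h. None of these genes passed, and the part of this sum in the result was not tested. Gpx1 at 72 h read 425, 384 and 400 in control and 286, 284 and 253 in EE arrays, apart but not past the threshold (log2 -0.51, SE 0.145, adjusted p = 0.0557).

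The EE effect differed between the tissues for many enzymes, by an interaction test at the 5 shared times. At 4 h 17 of 43 passed (33.8% of all genes), at 8 h 20 of 39 (48.1%), at 24 h 20 of 43 (40.1%), at 48 h 18 of 39 (36.4%) and at 72 h 15 of 35 (38.6%), shares near the background. The 4 h count was 11 when arrays were centred. For Sult1a1 at 24 h the log2 effect was -2.03 in uterus and -0.01 in pituitary, where control read 221, 142 and 114 and EE 115, 221 and 138. For Gstm7 at 24 h it was -2.16 against -0.10, with pituitary control arrays at 201, 154 and 148 and EE arrays at 177, 135 and 149. Both pituitary groups overlapped while the uterine groups did not. Gpx1 at 72 h differed by 1.96 (1.45 in uterus, -0.51 in pituitary).

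Without EE the tissues already had different levels of the same probe sets. Of 38 enzymes with enough control values, 18 were higher in uterus and 14 in pituitary (86.6% of all genes passed, 39% as higher in uterus and 47.6% as higher in pituitary). Aldh2 averaged 652 on uterus and 117 on pituitary control arrays (log2 difference 2.20), Aldh1a2 478 and 96.5 (2.00) and Gstm5 493 and 139 (1.61). Gsta1 averaged 71.7 and 456 (-2.25), Gpx3 257 and 970 (-1.81) and Aldh1a1 87.9 and 306 (-1.50). Of the mu-class genes that fell in uterus, Gstm1, Gstm2, Gstm5 and Gstm7 were higher there than in pituitary in controls, and Gstm4, which fell at 4 and 8 h, was lower there (64.9 against 76.2, log2 difference -0.17). In pituitary controls 2 of 40 enzymes changed over time (1.60% of all genes): Sult1a1 averaged 271 ± 17.7 at 4 h and 124 ± 37.6 at 72 h (adjusted p = 0.00806), and Cyp27a1 168 ± 33.7 and 87.7 ± 2.91 (adjusted p = 0.0416; SD, n = 3).

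**Figure D5:**
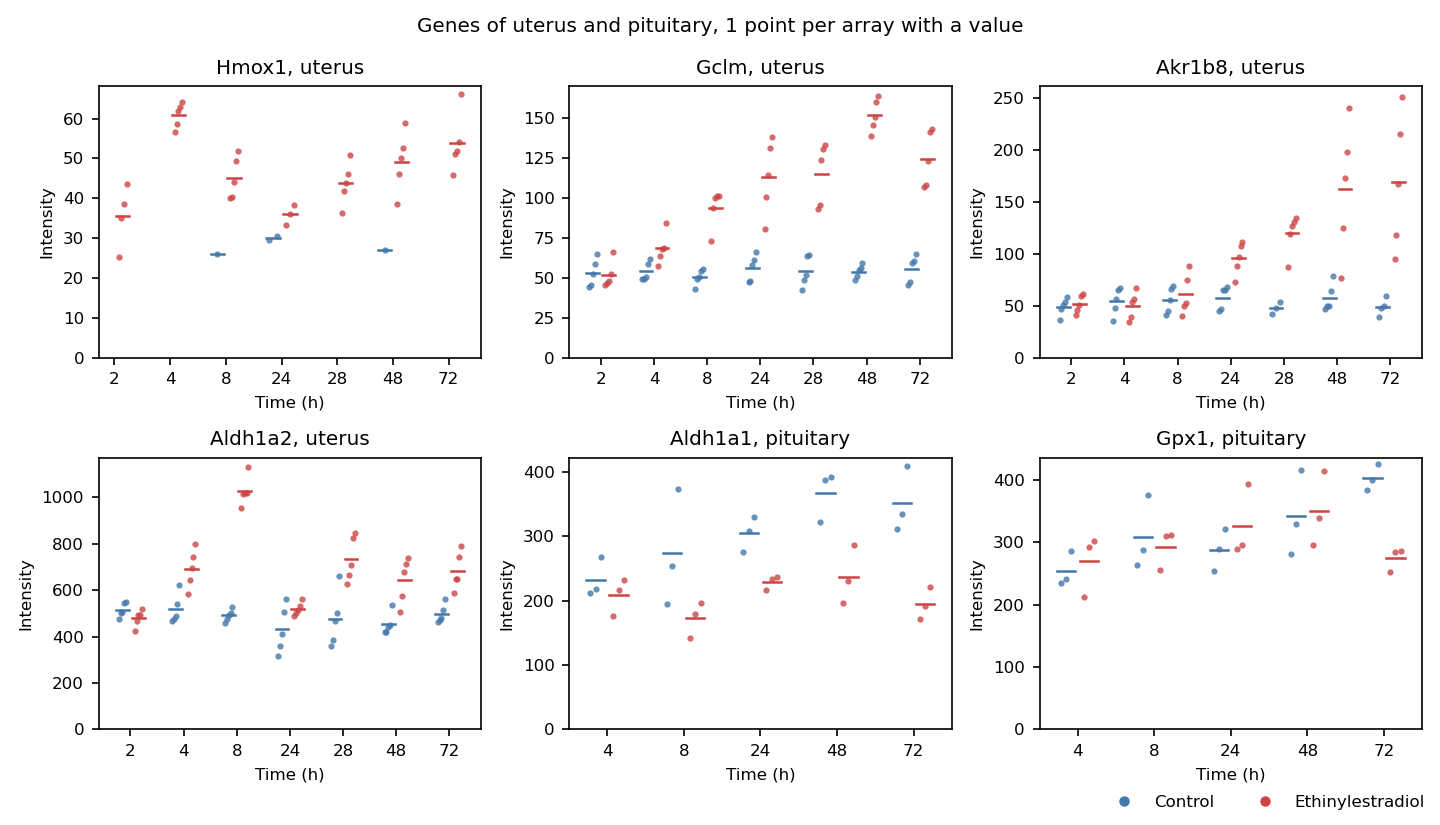
Intensity on each array with a value (vertical axis) against time in hours (evenly spaced) for Hmox1, Gclm, Akr1b8 and Aldh1a2 in uterus and Aldh1a1 and Gpx1 in pituitary, control in blue and EE in red, with bars at group means. Hmox1 has 4 control points in all, Aldh1a2 peaks at 952 to 1130 at 8 h, and pituitary Aldh1a1 EE arrays at 72 h (172 to 222) lie under controls of 312 to 408.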

How the data were processed

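Values came from 100 Affymetrix RAE230A arrays (15923 probe sets) hybridised, per the labels' protocols, with biotin-labelled total RNA (5 µg per array). The authors deposited linear intensities; how these were summarised or scaled, and why 37.2% of cells are empty, is not given in the sources used here. Array medians ran from 94.6 to 110. Of the probe sets 12783 named 1 gene, 312 several and 2771 none. A gene was read by its probe set with the most signal and intensities were taken as log2(intensity + 30.4), the offset being their 10th percentile. Group means were fitted over all groups of a tissue, empty cells left out gene by gene, with variances moderated by limma 3.58.1 in R 4.3.3 and p-values adjusted (Benjamini-Hochberg) over all genes tested; a gene needed values on 3 of 5 uterus or 2 of 3 pituitary arrays in each group. The fit was tested on simulated data. The members and lists were chosen with earlier results of these data known. Genes were named by a rule: at least 2-fold with groups apart in uterus, at least 0.5 on the log2 scale with groups apart in pituitary, the member of each family with the highest control level in each tissue, a set list of well-known genes, the 6 strongest tissue differences, and listed pathway genes past 2-fold. The number of arrays limits the precision.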

Additional observations from a re-analysis of the deposited data

Results flagged for a closer look

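In 86 groups of 4 or 5 uterus arrays whose values are given above, 3 single arrays stood apart from the rest of their group by Dixon's criterion, and chance alone marks about 1 group in 20. Gclm on EE array 35 at 8 h read 73.3, below the other 4 arrays at 94.0 to 101. Gstt3 on EE array 45 at 24 h read 413, above the others at 292 to 314. Aldh3a2 on EE array 32 at 8 h read 197, above the others at 131 to 141. All 3 arrays still lay on their group's side of every control array.

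For 6 enzymes the difference of the EE effect between uterus and pituitary stood out by the interaction test. It was 1.96 on the log2 scale for Gpx1 at 72 h, 2.15 for Gpx2 at 48 h, -1.25 for Cyp4v3 at 8 h, -1.40 for Cyp27a1 at 8 h, -2.03 for Sult1a1 at 24 h and -2.06 for Gstm7 at 24 h. In pituitary alone the effects of these genes at those times were -0.51, -0.15, 0.17, -0.06, -0.01 and -0.10, and none passed. Gpx2 had a value on only 13 of 30 pituitary arrays and could be tested there at 48 h alone, so its pituitary effect rests on few values.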

How the results depend on the processing

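Settings tried were centring each array on its median, quantile normalisation, offsets of 1 and 100, empty cells filled with the array's 10th percentile, the mean of all probe sets, a value on every array, only the 2 groups compared in the fit, limma-trend, and leaving out each array. In uterus from 4 h to 72 h the counts of enzymes called stayed within 1.5 times under all of these; without single arrays they ranged over 29 to 33 at 4 h, 30 to 33 at 8 h, 27 to 33 at 24 h, 30 to 35 at 28 h, 28 to 29 at 48 h and 28 to 32 at 72 h. At 2 h the count of 1 became 3 with centring, 2 with quantile normalisation, offset 1, the mean of probe sets or a value on every array, and 0 to 4 without single arrays. In pituitary the count of 1 at 8 h became 0 with offset 1, offset 100, filled cells or only the 2 groups, and 0 to 2 without single arrays; at 72 h the 1 became 2 with offset 100 and 4 with only the 2 groups, and stayed at 1 without single arrays; the counts of 0 at 4, 24 and 48 h stayed at 0 without single arrays. The tissue difference at 4 h fell from 17 to 11 with centring, and the control groups over time in pituitary from 2 to 1 with offset 1 and with filled cells. With array number as a replicate block, the tissue differences at 48 and 72 h fell from 18 to 11 and from 15 to 9; the block uses only same-number pairs, so fewer arrays, and the labels do not say whether same-numbered uterus and pituitary arrays share an animal. Of 27 such pairs 8 correlated above 0.1 and 12 matched best with their own number, which does not settle the pairing. EE and control groups share no numbers, so no block applies within a tissue. Of 2998 refits of 164 single-gene results 2934 kept direction and side of the threshold, 63 kept direction only, and 1 reversed: Akr1a1 in uterus at 72 h, -0.042 under quantile normalisation. Where no cause is named, the cause was not tested.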
